A study of Mus musculus with 6 samples.

Results

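SE/SE-only regions inside genes are stretches of open chromatin that were called in all 3 libraries of Atoh7 SE/SE mutant retina and in none of the 3 wild-type libraries, and that lie within the body of a protein-coding gene. The peaks of the 6 per-library lists on chromosomes 1 to 19 were merged wherever they shared 1 bp or more, which gave 45562 regions. Of these, 16915 had their midpoint inside a protein-coding gene of the GRCm38 annotation and more than 1 kb from every gene end, and 1764 of the 16915 had the SE/SE-only pattern. The 1764 regions lay in 1399 host genes. The regions were chosen by the presence or absence of peaks in the 6 libraries, so every contrast of the genotypes over them is given as a description, without a test.

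ATAC-seq uses the Tn5 transposase, which cuts DNA that is not packed in nucleosomes and leaves sequencing adapters there, so that a pile of cuts marks an accessible site. Accessible sites inside genes are mostly intronic: introns of genes that act in development often hold enhancers, which bind transcription factors and act on the host gene or on a neighbour, and some hold the start sites of shorter transcripts. Atoh7 encodes the basic helix-loop-helix factor that makes retinal progenitors competent to become retinal ganglion cells, the projection neurons of the eye. A shadow enhancer is a further element whose activity overlaps that of a gene's primary enhancer.

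The tissue was embryonic retina, taken at E14.5 from mice of the strain C57BL/6. The wild-type group was Atoh7 +/+ and the mutant group was Atoh7 SE/SE, in which both copies of the gene's shadow enhancer are mutated, with 3 libraries each. Per the labels, every library came from the pair of retinas of an individual animal, about 100000 cells were transposed, and DNA equivalent to 50000 cells was amplified. PCR ran for 17, 18 and 19 cycles in the wild-type libraries, and for 15, 16 and 16 in those of SE/SE. Cycle numbers are not given library by library, and the effect of amplification cannot be told apart from that of the genotype. The wild-type lists held 31340, 34797 and 27873 peaks and the SE/SE lists 39115, 42722 and 44242, so each SE/SE list was longer than each wild-type list. Read depth is unknown. In whole tissue, fewer cells of a type and less accessible chromatin per cell cannot be told apart.

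The sequences of most of the regions are not printed, since no genome sequence was used here. RefSeq promoter windows of GRCm38.p6, which run from 250 bases before to 50 bases after a transcription start, cover some of them, because many genes have start sites inside their longest annotated span. Of the 1703 SE/SE-only regions on the chromosomes of that table, 46 (2.70%) overlapped a promoter window and 37 (2.17%) a window of their own host gene. Of the 6737 regions inside genes with a peak in all 6 libraries, 1480 (22.0%) overlapped a window and 1360 (20.2%) one of their host gene. The share over any window was 3.32% for regions in 3 SE/SE libraries and 1 wild-type library, and 4.51% with 2 wild-type libraries. The 7 windows printed here show what an SE/SE-only region covers at an internal start site. Fam181a, Cdkn2a, Prkag2 and Gstm6 are the 4 whose region was also SE/SE-only with lists of equal length, and Casz1, Trpm3 and Tfap2a were added for their known roles in the retina, after their values had been seen. Each is written 5′ to 3′ on the strand of the gene, with the bases inside the SE/SE-only region in capitals.
Fam181a (chr12:103314709-103315008, plus strand): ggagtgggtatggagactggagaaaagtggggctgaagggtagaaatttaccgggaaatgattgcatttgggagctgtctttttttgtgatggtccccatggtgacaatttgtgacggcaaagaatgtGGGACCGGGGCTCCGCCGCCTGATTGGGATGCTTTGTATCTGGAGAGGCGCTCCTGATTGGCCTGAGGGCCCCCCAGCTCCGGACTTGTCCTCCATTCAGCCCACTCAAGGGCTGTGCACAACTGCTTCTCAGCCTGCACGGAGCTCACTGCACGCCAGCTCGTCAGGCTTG
Cdkn2a (chr4:89282143-89282442, minus strand): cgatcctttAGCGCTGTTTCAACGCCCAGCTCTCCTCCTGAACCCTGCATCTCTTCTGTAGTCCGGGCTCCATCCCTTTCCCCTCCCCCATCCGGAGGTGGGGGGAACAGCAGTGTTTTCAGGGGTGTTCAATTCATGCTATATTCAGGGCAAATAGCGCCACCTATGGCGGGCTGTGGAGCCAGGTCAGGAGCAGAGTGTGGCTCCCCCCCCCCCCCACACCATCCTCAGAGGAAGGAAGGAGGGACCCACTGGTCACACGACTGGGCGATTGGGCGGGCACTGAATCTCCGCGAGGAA
Prkag2 (chr5:25100593-25100892, minus strand): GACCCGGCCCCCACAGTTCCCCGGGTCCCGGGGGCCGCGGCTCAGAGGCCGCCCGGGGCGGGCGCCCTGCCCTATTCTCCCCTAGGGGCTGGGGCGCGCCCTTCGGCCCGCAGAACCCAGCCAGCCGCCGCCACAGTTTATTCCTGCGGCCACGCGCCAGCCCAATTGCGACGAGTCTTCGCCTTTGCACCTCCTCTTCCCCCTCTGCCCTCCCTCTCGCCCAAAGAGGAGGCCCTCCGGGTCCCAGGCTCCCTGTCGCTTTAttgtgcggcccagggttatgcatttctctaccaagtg
Gstm6 (chr3:107943685-107943984, minus strand): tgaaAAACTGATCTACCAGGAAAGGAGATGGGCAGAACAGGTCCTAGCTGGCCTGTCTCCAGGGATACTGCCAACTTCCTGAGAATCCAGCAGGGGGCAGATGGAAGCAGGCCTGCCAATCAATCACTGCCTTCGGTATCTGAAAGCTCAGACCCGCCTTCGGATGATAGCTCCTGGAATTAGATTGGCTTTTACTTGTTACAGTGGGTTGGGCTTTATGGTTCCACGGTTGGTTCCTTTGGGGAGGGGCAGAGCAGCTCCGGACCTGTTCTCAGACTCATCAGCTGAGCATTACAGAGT
Casz1 (chr4:148889097-148889396, plus strand): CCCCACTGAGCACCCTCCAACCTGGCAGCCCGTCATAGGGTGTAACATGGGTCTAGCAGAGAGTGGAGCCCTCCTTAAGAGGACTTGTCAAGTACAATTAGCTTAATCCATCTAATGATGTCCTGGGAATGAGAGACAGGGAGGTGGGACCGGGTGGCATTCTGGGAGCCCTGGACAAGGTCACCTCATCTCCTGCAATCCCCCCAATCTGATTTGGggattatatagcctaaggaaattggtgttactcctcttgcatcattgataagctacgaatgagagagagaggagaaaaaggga
Trpm3 (chr19:22447958-22448257, plus strand): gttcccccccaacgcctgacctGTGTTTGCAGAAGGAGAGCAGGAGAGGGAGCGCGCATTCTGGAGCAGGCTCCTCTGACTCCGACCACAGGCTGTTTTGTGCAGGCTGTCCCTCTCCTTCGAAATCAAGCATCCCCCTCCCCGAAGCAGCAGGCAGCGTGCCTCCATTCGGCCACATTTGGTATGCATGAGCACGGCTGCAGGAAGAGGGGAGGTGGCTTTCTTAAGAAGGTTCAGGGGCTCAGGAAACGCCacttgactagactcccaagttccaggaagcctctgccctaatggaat
Tfap2a (chr13:40733746-40734045, minus strand): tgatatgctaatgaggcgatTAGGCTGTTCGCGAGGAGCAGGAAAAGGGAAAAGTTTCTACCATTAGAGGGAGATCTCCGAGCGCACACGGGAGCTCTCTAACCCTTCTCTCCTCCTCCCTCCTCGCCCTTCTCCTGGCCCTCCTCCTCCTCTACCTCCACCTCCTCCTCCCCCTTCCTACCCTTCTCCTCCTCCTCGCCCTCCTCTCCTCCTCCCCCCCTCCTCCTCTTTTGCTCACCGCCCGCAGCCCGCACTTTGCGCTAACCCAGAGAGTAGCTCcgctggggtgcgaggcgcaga

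The Cdkn2a window belongs to the downstream of the gene's start sites. Cdkn2a encodes inhibitors of the cell cycle from alternative first exons, and its other window had a peak in 6 of 6 libraries. In Prkag2, a regulatory subunit of AMP-activated kinase, the window with the SE/SE-only region was 1 of 3, and of the other windows 1 had a peak in all 6 libraries and 1 in none. Casz1 is a zinc-finger factor of retinal progenitor timing. Its upstream window also had a peak in all 6 libraries, as did the upstream window of Trpm3, a cation channel gene that hosts a retinal microRNA. Tfap2a, a factor of amacrine and horizontal cells, differed in that its upstream window had no peak in any library. The percentiles of the Cdkn2a peaks by signal value within their own lists were 40.9, 45.4 and 37.2 in SE/SE libraries 1, 2 and 3. Those of the Tfap2a peaks were 10.1, 4.72 and 19.2. The windows thus ranged from mid-list to the weak end of the lists.

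The 37 windows of the host gene resembled promoters in general in the motifs searched on both strands. The search covered whole windows, of which the SE/SE-only region can share few bases (9 in Acot7), so the shares do not describe the regions themselves. The E-box CANNTG, the core bound by basic helix-loop-helix factors, was in 26 of the 37 (70.3%) and in 72.3% of all 32851 windows. The E-box CAGCTG, which is a subset of it, was in 6 (16.2%) against 16.3%. The homeodomain core TAATTA was in 2 (5.41%) against 5.29%, and the GC box GGGCGG in 13 (35.1%) against 35.7%. TATAAA was in 3 (8.11%) against 13.6%. The median GC content was 54.7% in the 37 windows and 52.7% in all. Of the 7 windows shown, those of Cdkn2a, Prkag2 and Tfap2a hold GGGCGG, those of Fam181a, Prkag2, Gstm6 and Trpm3 hold CANNTG, and that of Gstm6 holds CAGCTG. Gstm6 belongs to a cluster of near-identical glutathione transferase genes, so the reads mapped there are uncertain.

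The SE/SE-only pattern made up 10.4% of the regions inside genes, which is 1764 of 16915. The share was 10.5% between genes (1617 of 15395) and 2.74% at gene ends (363 of 13252), and 8.22% over all classes. The shares inside and between genes were close, and the share at gene ends was the lowest of the 3. The opposite pattern, a peak in all 3 wild-type and no SE/SE library, was found in 3 regions inside genes (0.0177%). Partial patterns lay on the same side. A peak in 1 SE/SE library and no wild-type library was found in 2379 regions inside genes and a peak in 2 SE/SE libraries alone in 1776, whereas 96 had a peak in 1 wild-type library alone and 11 in 2. A peak in all 6 libraries was found in 6963 regions (41.2%).

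**Figure D1:**
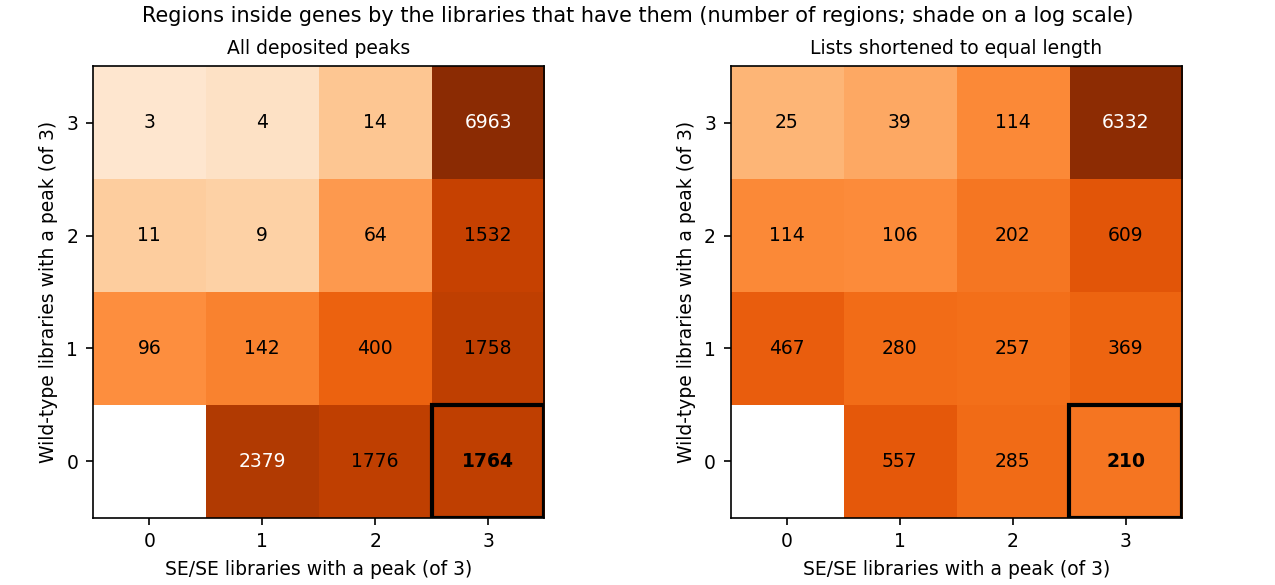
Numbers of regions inside genes by how many wild-type libraries (vertical axis, 0 to 3) and SE/SE libraries (horizontal axis, 0 to 3) had a peak, with all deposited peaks on the left and with lists of equal length on the right; the shade is on a log scale and the black frame marks the SE/SE-only pattern. The framed count is 1764 on the left and 210 on the right, and the count for wild type only is 3 and 25.

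With each list shortened to its 27873 highest signal values, the length of the shortest list, 210 of 9966 regions inside genes (2.11%) were SE/SE-only and 25 (0.251%) were wild-type-only. Of the original 1764 regions, 50 (2.83%) were among the 210. The other 1714 lost at least 1 SE/SE peak: 1401 were below the rank limit in all 3 SE/SE libraries, 225 in 2 and 88 in 1. The remaining 160 of the 210 came in because wild-type peaks were left out. In the full lists 104 of them had a peak in 1 wild-type library and 56 in 2, and the wild-type library concerned was library 2 for 146 and library 1 for 70. Most of the regions that are SE/SE-only at equal list length are therefore not among those that are SE/SE-only with all peaks.

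The regions were weak within their own lists. A percentile is used here, because no source used here says whether the deposited signal values were scaled between libraries. It is the share of the peaks of the same list, chromosomes X and Y included, with a signal value at or below the peak's own. The median percentile of the 1764 regions was 13.7 in SE/SE 1, 19.97 in SE/SE 2 and 23.2 in SE/SE 3, or 19.0 ± 4.83 (SD, n = 3 libraries). It was higher in regions that wild-type libraries shared: 27.1 ± 5.19 with 1 wild-type library, 36.7 ± 4.48 with 2 and 63.6 ± 2.37 for regions in all 6. SE/SE-only regions between genes, at 13.3, 20.7 and 23.9 in the 3 libraries, were as low as those inside genes. The highest percentile reached by a region was 46.7, 58.0 and 58.9 in the 3 libraries, so none of the regions was among the strongest peaks of a list.

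**Figure D2:**
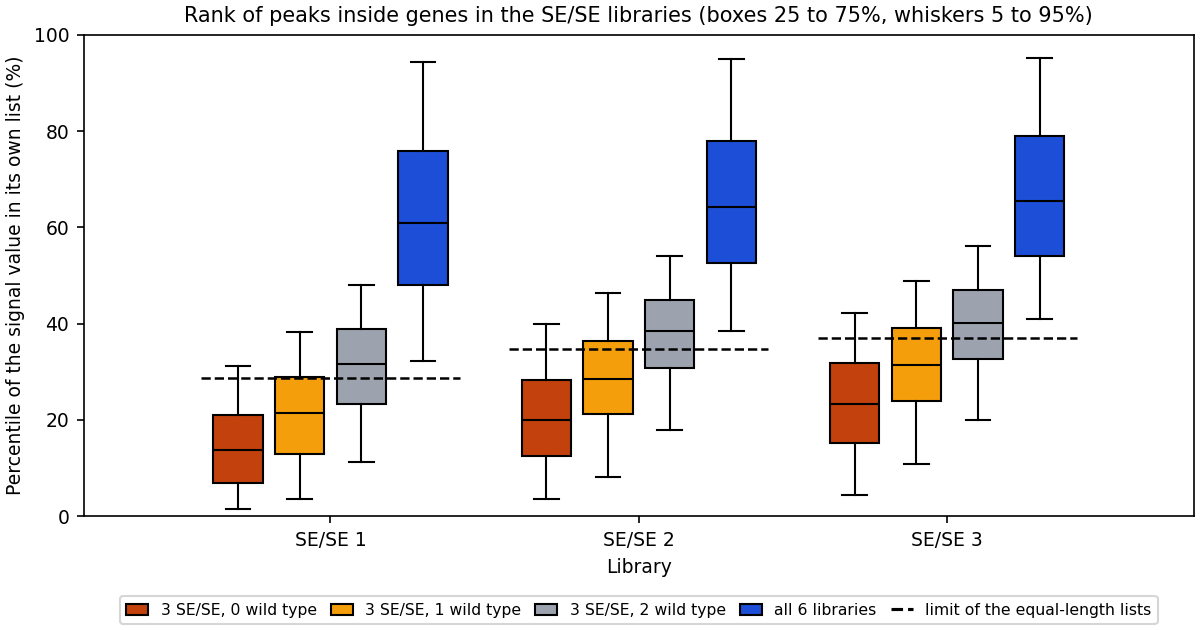
Percentile of the signal value within its own list (vertical axis, %) for peaks inside genes in the 3 SE/SE libraries (horizontal axis), by the libraries that share the region; boxes span the 25th to the 75th percentile of the regions with the median as a line, whiskers the 5th to the 95th, and the dashed line is the rank below which peaks are left out at equal list length. The median of the SE/SE-only regions lies below the dashed line in all 3 libraries, at 13.7, 19.97 and 23.2 against limits of 28.7, 34.8 and 37.0.

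The rank limits of the equal lists stood at signal values of 94.6, 124 and 135 in SE/SE 1, 2 and 3, and below them lay 92.2%, 89.1% and 87.5% of the SE/SE-only regions. The median signal values were 45.8, 63.6 and 73.6, where the lowest value in each list is just over 20. A signal under 40 was found for 720 regions (40.8%) in SE/SE 1, 377 (21.4%) in SE/SE 2 and 281 (15.9%) in SE/SE 3. SE/SE 1, the shortest of the 3 lists, thus had the lowest median at these regions, in percentile as in signal value. Whether signal values can be compared between libraries is not known. The median −log10 of the deposited q-value was 1.84, 1.94 and 2.00, against 3.17, 3.41 and 3.45 for regions inside genes that had a peak in all 6 libraries. The rank of a region was only partly shared between animals: over the 1764 regions, Spearman's rho of the percentile was 0.42 between SE/SE 1 and 2, 0.39 between 1 and 3 and 0.53 between 2 and 3. All 3 libraries chose the regions, so these values are a description.

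The choice of libraries set the number as well. Without wild-type library 2, which has the longest wild-type list, 3205 regions inside genes were SE/SE-only, and without SE/SE library 1, which has the shortest SE/SE list, 3097 were. Leaving out any other single library gave from 1812 to 2055. A pattern over 5 libraries asks for fewer conditions than one over 6, so each of these counts is higher than 1764 by construction.

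A region with no peak in the 3 wild-type lists could have one in the authors' joint lists, of which there is 1 for each genotype. The joint wild-type list held 104991 peaks and the joint SE/SE list 120772, more than any list of a single library. Both joint lists had a peak at each of the 1764 regions. The overlap is not particular to them, as the 2379 regions inside genes with a peak in 1 SE/SE library alone also all overlapped a joint wild-type peak. The joint wild-type peaks at the 1764 regions had a median percentile of 68.2 in that list (51.7 to 99.97), and the joint SE/SE peaks a median of 74.6 (61.5 to 99.98). The strongest joint peak sharing at least 1 bp was taken. These peaks were wide, with medians of 414 and 536.5 bp against 187 bp for the regions, so a percentile can come from a neighbouring site. The joint peaks of regions in all 6 libraries had medians of 86.7 and 88.8. A region counted here as SE/SE-only was thus without a call in each wild-type library taken alone and with a call in the joint wild-type list.

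Some of the regions lay at the flank of a wild-type peak. The distance to the nearest peak of any wild-type library had a median of 11194 bp and a range of 95 to 546338 bp. It was at most 500 bp for 203 regions (11.5%) and above 10 kb for 933 (52.9%). In Gse1, for example, a region of 164 bp was 188 bp from a wild-type peak, and in Robo1 a region of 115 bp was 171 bp from one. In Robo1 the region farthest from wild-type peaks was 113955 bp away. The median distance to the nearest region common to the 6 libraries was 18034.5 bp.

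The regions were short and spread along their genes. Their median width was 187 bp (93 to 821), against 478 bp for regions inside genes in all 6 libraries, and deposited signal values are tied to width. The median distance to the nearest gene end was 22658.5 bp, against 14019 bp. In the 1356 regions whose single host gene had a strand in the tables used, the median position was 50.02% of the gene's length from its 5′ end, and 22.3% lay in the first 20% of the gene. Regions in all 6 libraries leaned to the 5′ side, with a median of 38.7% and 30.9% in the first 20%. Within 10 kb of the 5′ end lay 20.6% of the SE/SE-only regions and 35.0% of those in all 6. These traits are not particular to the SE/SE-only regions. Regions in 3 SE/SE libraries and 1 wild-type library had a median width of 204 bp and a median position of 49.5%. Of them, 22.5% lay in the first 20% and 22.0% within 10 kb. With 2 wild-type libraries the values were 241 bp, 47.6%, 22.9% and 22.1%. Regions lay on both sides of the distance threshold without a gap: those just inside it, in 2610318N02Rik, Fam43a and Nxnl1, were 1024, 1029 and 1031 bp from a gene end, and the SE/SE-only regions just outside, at Grm6, Lmbr1l and Lrp4, were 989, 990 and 997 bp away.

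Of 20661 protein-coding genes on chromosomes 1 to 19, 1399 (6.77%) held at least 1 SE/SE-only region and 284 (1.37%) at least 2. Exactly 1 was found in 1115 genes, 2 in 209, 3 in 50 and 4 or more in 25. In all, 13 regions lay in overlapping genes and are counted for each, and 1 of them lies in the gamma-protocadherin cluster, whose 24 overlapping annotated genes it counts for. Host genes were long, with a median of 105.9 kb against 17.5 kb for all protein-coding genes and 42.0 kb for genes with another region inside but no SE/SE-only one. From the shortest to the longest of 4 equal groups of genes by length, 0.542%, 2.38%, 4.72% and 19.4% of the genes were hosts, whereas the density of SE/SE-only regions per megabase of gene was 2.04, 2.17, 1.81 and 1.76. Long genes were hosts more often, and the density over the full gene length was not higher in them. Stretches within 1 kb of a gene end could hold no such region by the rule. They take up more of short genes, so the 4 densities are not strictly comparable. Among the regions inside genes, the SE/SE-only share was 7.95%, 8.60%, 9.53% and 11.0% in the same 4 groups. By chromosome it ran from 9.01% on chromosome 3 to 14.2% on chromosome 16 (84 of 590).

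Most host genes were accessible at their ends in both genotypes. All 6 libraries had a peak at a gene end (within 1 kb) for 974 of the 1399 hosts (69.6%), compared with 57.0% of all genes and 64.7% of genes with another region but no SE/SE-only one. By library, 1010, 1038 and 979 hosts had such a peak in wild type, against 1073, 1091 and 1091 for SE/SE. As shares of the hosts these were 72.2%, 74.2% and 70.0% against 76.7%, 78.0% and 78.0%. Genes with another region but no SE/SE-only one went the same way, at 67.0%, 68.5% and 65.1% against 70.3%, 71.5% and 71.6%. So did all genes, at 58.5%, 59.7% and 57.4% against 60.9%, 61.8% and 61.9%. The direction is thus not particular to the hosts. A region common to the 6 libraries lay inside 869 of the hosts (62.1%), and 304 (21.7%) had no region inside other than SE/SE-only ones. In 67 hosts there was neither another region inside nor a peak at a gene end in any library.

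Robo1, the receptor for Slit ligands in axon repulsion, held the most, with 8 SE/SE-only regions among 25 regions inside it. The gene (NCBI Gene 19876) spans chr16:72027518-73047491 on the plus strand. It had 12, 13 and 11 peaks inside in the wild-type libraries and 21, 22 and 25 in SE/SE. Each SE/SE-only region adds a peak to every SE/SE library and none to wild type, so part of this difference was set by the choice. That holds for the host genes below as well. Over all genes, the peaks inside genes numbered 9531, 11164 and 8037 in wild type and 13284, 15031 and 15775 in SE/SE. In Robo1, 10 regions were in all 6 libraries. The 8 regions lay at 72465760, 72470134, 72510984, 72615062, 72649411, 72788121, 72875088 and 73038648 (start positions). The strongest, of 453 bp at 72470134, had percentiles of 21.2, 44.2 and 29.8 in SE/SE 1, 2 and 3. The weakest, of 154 bp at 73038648, had 0.716, 9.79 and 7.97. All 8 were below 25 in SE/SE 1, and none was SE/SE-only at equal list length.

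Slit3, which encodes a secreted Slit ligand, held 6 among 24 regions. The gene (NCBI Gene 20564) spans chr11:35121456-35708507. Its peaks numbered 12, 12 and 9 in wild type and 21, 22 and 24 in SE/SE, and 9 regions were in all 6 libraries. The strongest SE/SE-only region, at 35282889 and 453 bp wide, had percentiles of 27.2, 44.8 and 38.2, with the nearest wild-type peak 34802 bp away. It passed the rank limit in SE/SE 2 and 3 and missed it in SE/SE 1. Each of the other 5 was weaker in all 3 libraries: the region at 35486227, for example, had 2.57, 6.90 and 13.8.

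Gse1, whose coiled-coil protein is found in histone deacetylase complexes, held 7 among 57 regions, 30 of them in all 6 libraries. The gene (NCBI Gene 382034) spans chr8:120228501-120581383. With 40, 47 and 35 wild-type peaks and 51, 51 and 55 SE/SE peaks, it was densely open in both genotypes, and its SE/SE-only share of 12.3% is near the 10.4% over all genes. Each of its 7 regions was within 2876 bp of a wild-type peak. The region at 120486524 overlapped a joint wild-type peak at percentile 96.8, a value that can come from a neighbouring site. Its own percentiles were 7.28, 19.2 and 31.96 in SE/SE 1, 2 and 3, and the nearest wild-type peak was 597 bp away.

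Bach2, a leucine-zipper repressor best known from lymphocytes, held 6 among 23 regions. The gene (NCBI Gene 12014) spans chr4:32238413-32586109, with 10, 9 and 8 peaks in wild type and 16, 20 and 21 in SE/SE. The region at 32481428 had percentiles of 7.82, 21.6 and 43.4 in SE/SE 1, 2 and 3. That at 32359177 had 0.534, 19.2 and 24.97. Both show how far the same site could differ in rank between animals of the same genotype.

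**Figure D3:**
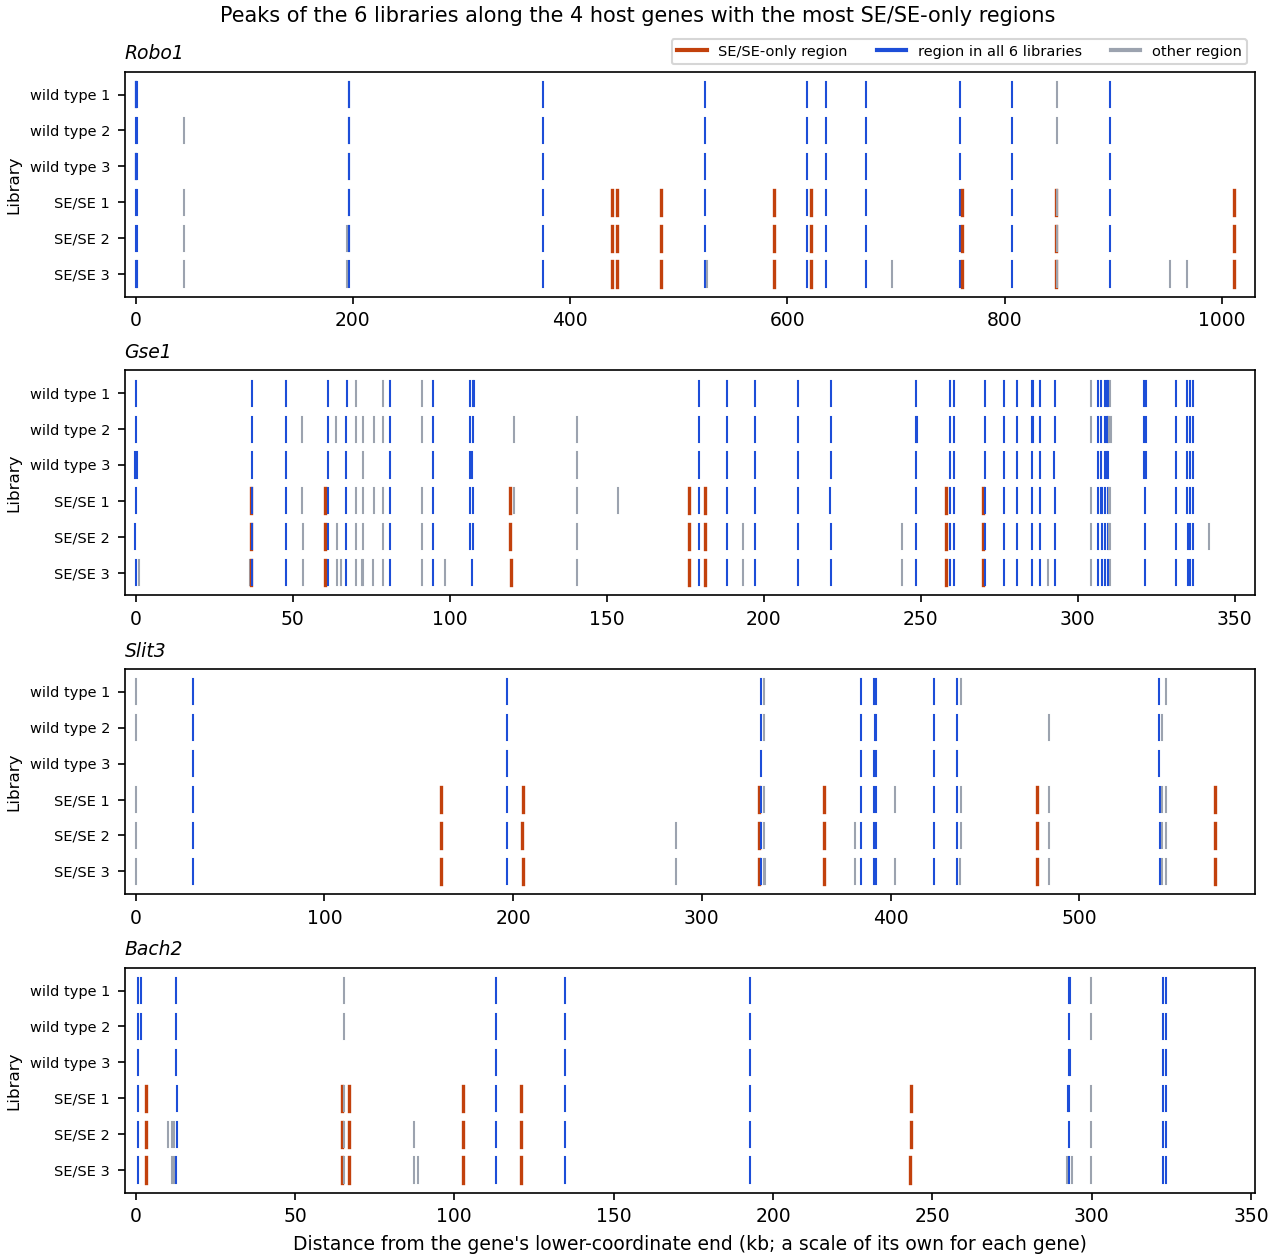
Peaks of the 6 libraries (rows) along Robo1, Gse1, Slit3 and Bach2 (horizontal axis, distance in kb from the gene's lower-coordinate end, with a scale of its own for each gene); each tick is the midpoint of a peak and its colour the class of its region. The orange SE/SE-only ticks stand in the 3 SE/SE rows only, 8 in Robo1, 7 in Gse1, 6 in Slit3 and 6 in Bach2, and several lie beside a blue region that is in all 6 libraries.

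A further 6 genes held 5 regions each. Among them, Pcdh9, a protocadherin adhesion protein, had 5 of 15 regions, and Ptprd, a receptor phosphatase of axons and synapses, 5 of 22. Nrg1, a ligand of ErbB receptors, had 5 of 18, and Adamtsl1, a secreted matrix protein, 5 of 11. In Adamtsl1 the other 6 regions included 5 in all 6 libraries, so its lists held 6, 6 and 6 peaks in wild type and 11, 11 and 11 in SE/SE. The remaining 2 were Fbxl17, an F-box protein (5 of 15), and Macrod2, an ADP-ribosyl hydrolase (5 of 39). The 15 genes with 4 regions included Dscaml1, an adhesion molecule of retinal neuron spacing (4 of 15), and Unc5c, a netrin receptor (4 of 20). They also included Tenm3, a teneurin of visual wiring (4 of 36), and Syt1, the calcium sensor of synaptic vesicles (4 of 17). The zinc-finger factors Zbtb20, Zfp536 and Zfp423 held 4 of 16, 4 of 29 and 4 of 20. Cacna2d2, an accessory calcium channel subunit, held 4 of 11, and Celf2, a splicing factor, 4 of 30. The others were Slc9a9, Slc39a11, Ptprm, Frmd4a, Wwox and Fignl2.

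**Figure D4:**
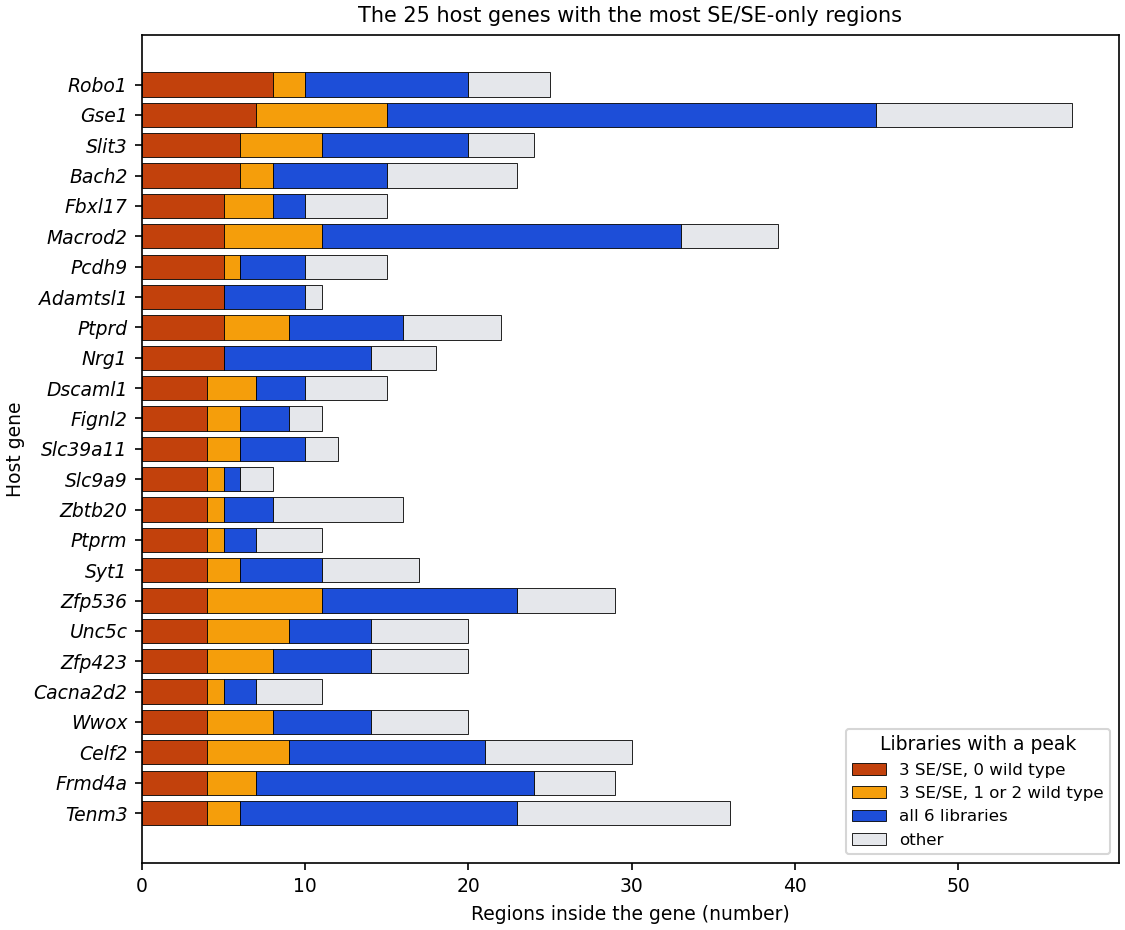
Number of regions inside each of the 25 host genes with the most SE/SE-only regions (horizontal axis), stacked by the libraries that have a peak. Robo1 leads with 8, Gse1 has 7 of 57, and every gene but Slc9a9, Fbxl17, Ptprm and Cacna2d2 also has 3 or more regions in all 6 libraries.

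Fignl2, a fidgetin-like ATPase gene, is the short one of the 25. It is 28.4 kb long and held 4 regions, or 14.1 per 100 kb, against 0.784 per 100 kb in Robo1. Its regions had percentiles of 27.9, 36.9 and 28.5 at 101052846 on chromosome 15, and of 25.9, 27.8 and 26.9 at 101066293. Of the 4, 3 lie close together, at 101065105, 101066293 and 101067040. Regions of the same gene were otherwise far apart: over 401 pairs of adjacent regions the median gap was 56589 bp, and 49 pairs (12.2%) were within 5 kb.

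The 10 regions with the highest percentile in their weakest SE/SE library lay in 10 genes. Of these, Slc39a11 is among the 25 with the most regions. All 10 were also SE/SE-only at equal list length, which follows from the choice, as each was above the rank limit in all 3 SE/SE libraries. Foxl2, a forkhead factor of eyelid and ovary development, had the widest of all the regions, 821 bp at 98956273 on chromosome 9. Its percentiles were 46.7, 58.0 and 45.1 in SE/SE 1, 2 and 3, and the nearest wild-type peak was 624 bp away. In Slc12a8, a solute carrier of the cation-chloride family, a region of 520 bp at 33605977 on chromosome 16 had 45.7, 51.5 and 58.9, and the nearest wild-type peak was 45379 bp away. In the per-library lists the Foxl2 region thus lay near a wild-type peak and the Slc12a8 region far from one. Both overlapped a joint wild-type peak, as all the regions did. The region in Fam181a, whose internal start site is among the 7 printed, had 45.9, 46.2 and 49.9. Serpinb7, a protease inhibitor, had 46.3, 42.4 and 52.9, and Bcar1, an adhesion docking protein, had 42.7, 54.6 and 50.3. Mapk4, an atypical MAP kinase, had 42.6, 47.3 and 47.3. These regions were picked for a high value in their weakest library, so a low value in any animal was not possible among them. Sorcs1, a sortilin-family receptor, had 42.0, 40.9 and 53.2, and H2-Ab1, a class II histocompatibility chain of antigen-presenting cells, had 41.5, 45.8 and 48.5. Cers6, a ceramide synthase, had 39.1, 39.8 and 49.2, and Slc39a11, a zinc transporter, had 38.8, 51.4 and 57.2.

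The 50 regions that were SE/SE-only in both ways had median percentiles of 35.1, 42.7 and 44.8 in the 3 SE/SE libraries and lay in 50 genes. The genes of the gene lists among them were Epha4, Dscam and Cdh11 of axon guidance and adhesion, Syt1 and Dlg2 of the synapse, Chd7 of chromatin, and Foxc1 and Pdgfrb of mesenchyme. Epha4, an ephrin receptor, had 29.6, 39.9 and 41.7 at 77429225 on chromosome 1. Dscam, an adhesion molecule of retinal lamination, had 32.4, 41.8 and 42.2 at 96846143 on chromosome 16. The Syt1 region, at 108525482 on chromosome 10, had 33.8, 51.7 and 44.6 and was 477 bp from a wild-type peak. These regions lay above the rank limits of 28.7, 34.8 and 37.0 but well below the medians of regions in all 6 libraries, 60.9, 64.3 and 65.5. In Slit1, a Slit ligand made in the retina, a region of 660 bp had 26.8, 57.0 and 53.0, so it was left out through SE/SE 1 alone. With equal lists the host genes numbered 209, of which 103 were also hosts with all peaks. Epha4, Magi1 and Plcl1 were the only hosts with 2 regions at equal list length, and Robo1, Gse1, Slit3 and Bach2 had none.

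The gene lists hold 551 genes for retinal cell types, neuronal functions and other cell types of the eye. Of the 535 on chromosomes 1 to 19, 165 were hosts, with 269 regions. Axon guidance and cell adhesion genes were hosts most often among the larger lists, 36 of 66 (54.5%), followed by synaptic genes with 25 of 53 (47.2%), cytoskeleton genes with 19 of 44 (43.2%) and ion channels with 17 of 47 (36.2%). These genes are long, with median lengths of 326, 396, 299 and 300 kb. Genes in the same groups of length were hosts in 18.5%, 17.1%, 19.4% and 17.5%. The longest of these groups runs from 45.0 to 2271 kb, so length is matched only roughly. Set against the other regions inside the same genes, the SE/SE-only share was 12.6% for axon guidance (77 of 611), 12.7% for ion channels (26 of 205), 11.1% for synapse (39 of 350) and 9.40% for cytoskeleton (33 of 351). The 4 shares are near the 10.4% of all regions inside genes. The genes of these lists thus held many SE/SE-only regions beside many regions of other patterns.

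Among axon guidance genes, Robo1, Slit3 and Pcdh9 led with 8, 6 and 5 regions. Robo2, the other Slit receptor of the retina, had 2 of 24, and Slit1 had 1 of 12. The netrin system had Unc5c with 4 of 20, Unc5b with 1 of 5, Ntn1 with 1 of 7 and Dcc with 1 of 6. Only hosts are named here, and the shares in Robo2 and Slit1 are at or below the 10.4% of all regions inside genes. Nrp1, a semaphorin receptor, had 2 of 4, Nrp2 had 1 of 5, and the semaphorins Sema6d and Sema5a had 2 of 5 and 2 of 9. The ion channel list was led by the calcium channel subunits Cacna2d2 with 4 of 11 and Cacna2d1 with 3 of 13. The synaptic list was led by Syt1 with 4 of 17, Dlg2, a postsynaptic scaffold, with 3 of 31, and Lrrc4c, a netrin-G ligand, with 3 of 27.

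Retinal ganglion cell genes held 24 of 209 regions (11.5%) in 17 of 49 genes (34.7%). Genes in the same groups of length, a rough match, were hosts in 10.0%. Zfhx3, Foxp2 and Mapt had 3 each, and Eya2 had 2. Ebf1, Ebf3, Isl2, Irx5, Elavl3 and Rbpms, each a known ganglion cell gene, had 1. Only hosts are named here, and most genes of the list held none. Retinal progenitor genes held 17 of 262 (6.49%) in 13 of 48 genes (27.1%), against 10.3% of genes in the same groups of length. Meis1, Meis2 and Nfia were among those with 2 and Pax6 had 1 of 16. The neurogenic list held 1 of 16 (6.25%), in Onecut1. Photoreceptor, amacrine, horizontal and bipolar genes held 7 of 65 (10.8%), with 2 in Tfap2b. RNA-binding genes held 14 of 181 (7.73%), led by Celf2 with 4 and Rbfox3 with 3 of 6. Chromatin regulators held 18 of 167 (10.8%), with 3 each in Auts2 and Chd7. None of the 23 regions inside cell cycle and replication genes was SE/SE-only, in 32 genes with a median length of 14.1 kb. Atoh7 itself is 1496 bp long, had no region inside by the definition used here, and had a peak at a gene end in 6 of 6 libraries.

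**Figure D5:**
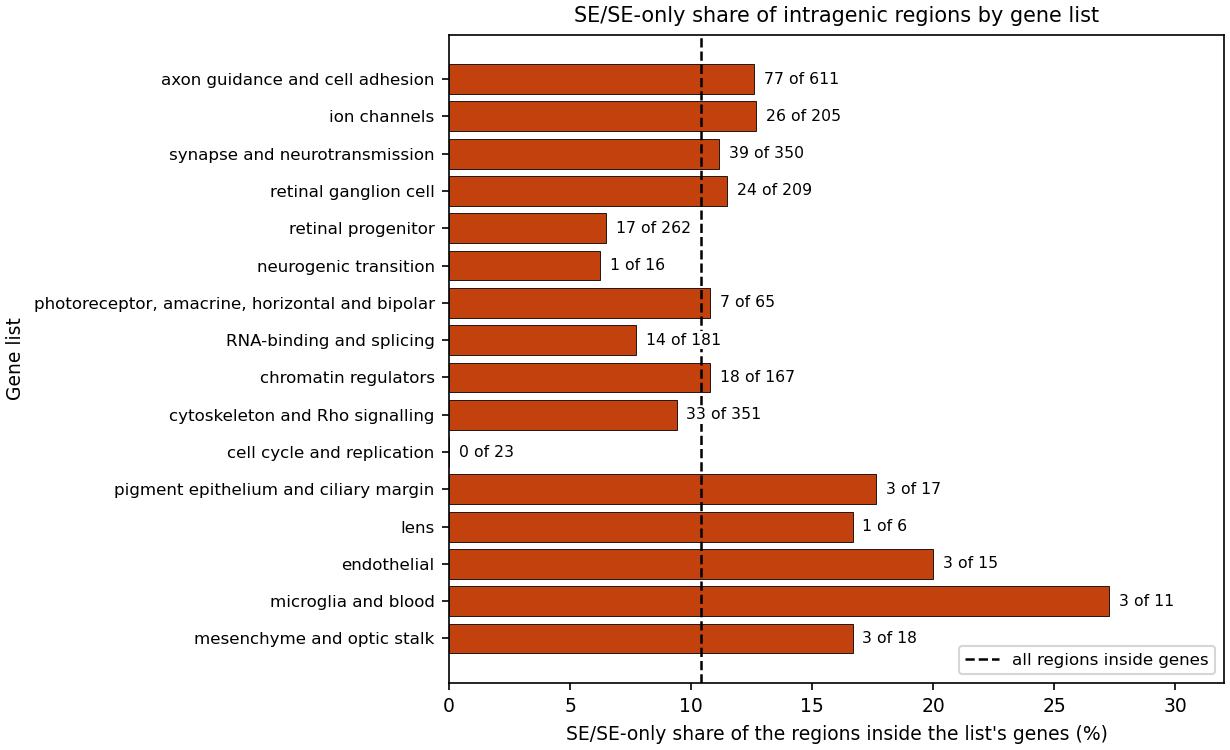
SE/SE-only share of the regions inside the genes of each list (horizontal axis, %), with the number of SE/SE-only regions and of all regions beside each bar and the share over all regions inside genes as a dashed line at 10.4%. The larger lists run from 6.49% for retinal progenitor genes, below the line, to 12.7% for ion channels, above it. Cell cycle and replication genes are at 0 of 23. The lists farthest above the line, with 6 to 18 regions each, are those of other cell types.

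The 5 lists of cell types outside the neural retina had the highest SE/SE-only shares of the 16, each above the 10.4% of all regions inside genes and each from few regions. The share was 17.6% in the pigment epithelium and ciliary margin list (3 of 17, in Mitf, Oca2 and Ttr), 16.7% in lens (1 of 6, in Crybb1) and 20% in endothelium (3 of 15, in Kdr, Flt1 and Esam). It was 27.3% in microglia and blood (3 of 11, with 2 in Runx1 and 1 in Ptprc) and 16.7% in mesenchyme (3 of 18, in Foxc1, Pdgfrb and Prrx1). Among defining markers of retina, a peak at a gene end in all 6 libraries was found for 9 of 10 progenitor and 9 of 10 ganglion cell genes. Over all genes the share was 57.0%. Among markers of other cells, 3 of 7 pigment epithelium, 2 of 6 lens, 1 of 6 endothelial, 0 of 6 microglia and blood and 5 of 6 mesenchyme genes had such a peak in all 6. The retinal counts go with the retinal label, but the mesenchyme count is close to them, so this readout cannot exclude mesenchyme in the tissue. Tyr, Rpe65, Tyrp1 and Slc45a2 of the pigment epithelium had none in any library, nor did Cryaa, Cryba1 and Crybb3 of the lens or Cdh5, Pecam1 and Tek of the endothelium. Of the 6 endothelial markers, 1, 2 and 1 had a gene-end peak in the wild-type libraries and 3, 3 and 3 in SE/SE. Mesenchyme had 5, 6 and 5 against 6, 6 and 6, and lens 3, 2 and 2 against 3, 3 and 3. Pigment epithelium had 3 in every library, and microglia and blood 0. Over all genes too, a gene-end peak was more frequent in each SE/SE library than in each wild-type one. The part of the endothelial difference in the regions of Kdr and Flt1, which are among these markers, and of Esam, which is not, was not tested.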

How the data were processed

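ATAC-seq peaks of E14.5 retina from 3 Atoh7 +/+ and 3 Atoh7 SE/SE animals were analysed as 6 per-library and 2 joint lists. Per the submitters' processing notes, the build was GRCm38 (mm10) and the tools were Genrich 0.5, bedtools 2.27.0, BWA, cutadapt and limma; their roles, duplicate handling and the Tn5 shift are not given in the sources used here. The deposited lists hold, for each peak, the authors' score, their signal value and their −log10 p and q-values, tied to peak width and used only to rank peaks within a list; depth is unknown. Genes came from RefSeq (GRCm38.p6), without exons, so exons and introns were not told apart, and strands from the RefSeq promoter table. Regions, percentiles, equal lists of 27873 peaks (chosen before chromosomes X and Y were left out) and gene counts were computed with Python 3.11.15, numpy 2.4.6, pandas 2.3.3, scipy 1.17.1 and matplotlib 3.10.9, and tested on simulated data.

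The regions and the 16 gene lists were chosen with earlier results of these data known. No contrast was tested, since the rule used the genotypes, and regions are not replicates. Named genes were Atoh7, the 25 hosts with most regions (ties by percentile), the hosts of the 10 regions with the highest lowest percentile and up to 3 leading hosts per list; others were chosen after their values were seen, as were the internal start sites printed. Of 553 list entries, 2 genes stand in 2 lists and 1 is not in the gene table. Alternatives covered list length, overlap, signal, gene ends, chromosomes, width and each library left out.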

Additional observations from a re-analysis of the deposited data

How the results depend on the processing

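List length moved the results most. With equal list lengths the 1764 regions in 1399 host genes became 210 in 209, with a share of 2.11% of regions inside genes and a median percentile (of the mean over the SE/SE libraries) of 40.8 instead of 10.4% and 18.9. Shortened within chromosomes 1 to 19, the values were 204, 205, 2.05% and 40.9, and with 20000 peaks per list 91, 87, 1.5% and 56.8. Regions of 200 bp or more numbered 689 in 584 genes, at 4.07% and percentile 24.7. Under the other choices that kept all 6 libraries, the counts of regions and host genes stayed within 1.5 times. The share stayed within its 95% exact binomial interval (9.97 to 10.9%, counting error only) with the ends of all gene types and with X and Y added, and left it otherwise: 9.50% with merging from 100 shared bp, 9.23% with no wild-type peak within 500 bp, 11.4% and 12.8% with signal values of 50 and 100 or more (median percentile 30.0 and 41.7), 7.38% with no distance from gene ends and 11.1% beyond 5 kb. Without 1 library, the regions ranged from 1812 to 3205, the host genes from 1433 to 2248, the share from 10.7% to 19.0% and the median percentile from 16.0 to 22.2. The highest counts came without wild-type library 2 (3205) and SE/SE library 1 (3097). With both left out, a choice made after seeing the data, there were 4789 regions in 2975 genes, at 28.7%. For 34 single host genes, 471 of 646 alternative counts stayed within 1.5 times; by any amount, 196 of the 646 were lower and 87 higher. In 6 genes, leaving out 1 library moved the count further: without SE/SE library 1, Syt1 and Tenm3 had 8, Dscaml1 7 and Sorcs1 5, and without wild-type library 2, Ptprd had 8 and Mapk4 2. Fewer libraries or peaks change these counts by construction, and no other cause was tested. No paired analysis was possible because the results come from no test.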
